A study of Mus musculus with 10 samples.

Results

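The rodent qPCR-array set held 67 assays named for rat miRNAs among 584 miRNA assays, and all of them were run on RNA of mouse cells. The members were every assay whose name began with rno-, star strands included, 40 of 375 on Array A and 27 of 209 on Array B, and the choice used no measured value. The remaining 335 and 182 assays were named for mouse miRNAs. The RNA came from proliferating C2C12 myoblasts, a line derived from mouse skeletal muscle, and aliquots of 1 RNA sample were used throughout. No group was treated, so the spread between cards and all p-values measure technical variation in 1 cell line. Array A was run on 4 cards, each from 500 ng of RNA, with the cDNA of the first or second reverse transcription (RT1, RT2) run on day 1 or day 2. Array B was run on 2 cards without and 2 cards with pre-amplification of the cDNA. For these cards the paper gives a smaller RNA input than for Array A. A microarray with mouse probes only was hybridised on 2 chips with 8 μg of RNA each. The comparisons ask how the rat-named assays read mouse RNA, how far each differed from the mouse assay of the same name, and whether the readings held between reactions, days and pre-amplification.

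MiRNAs are cut from a hairpin precursor, whose arms give the 5p and 3p strands, and the strand that is usually the less abundant carries a star. The bases near the 5′ end, the seed, choose the target mRNAs and are often shared by a whole miRNA family. In the TaqMan assay a stem-loop primer pairs with the 3′ end of the mature miRNA during reverse transcription, and a Ct is the PCR cycle at which the product crosses a threshold, so that a lower Ct means more product. Many miRNAs have the same mature sequence in rat and mouse and others differ at single bases or at an end, but the sequences of the rat targets were not used here.

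The mouse mature sequences behind the results are given first, as the microarray files list them. Of 37 target sequences looked up, 33 of a mouse probe of the same name and 4 of the same arm under another name, 33 were found in RefSeq, 32 of them letter for letter, and positions are those of RefSeq on GRCm38.p6. Capitals mark the seed, bases 2 to 8 from the 5′ end. The first set shows 5 miRNAs for which the rat-named and the mouse assay of the same name were both detectable on the same cards, as they also were for miR-532-5p.
miR-224 (Mir224, chrX:72261085-72261105, minus strand): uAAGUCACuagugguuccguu
miR-351 (Mir351, chrX:53053315-53053338, minus strand): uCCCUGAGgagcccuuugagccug
miR-339-3p (Mir339, chr5:139369673-139369695, minus strand): uGAGCGCCucggcgacagagccg
miR-7a* (Mir7-1, chr13:58392800-58392821, minus strand): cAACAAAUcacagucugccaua
miR-125b* (Mir125b-2, chr16:77646318-77646339, plus strand): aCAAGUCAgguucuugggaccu

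The second set shows 2 miRNAs for which only the rat-named assay was detectable, as was also the case for miR-1.
miR-207 (Mir207, chr4:40722968-40722990, plus strand): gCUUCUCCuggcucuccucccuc
miR-345-3p (Mir345, chr12:108837027-108837048, plus strand): cCUGAACUaggggucuggagac

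The third set shows the miRNAs for which only the mouse assay was detectable in the comparison on the same cards.
miR-881 (Mir881, chrX:66801954-66801975, minus strand): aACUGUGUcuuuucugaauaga
miR-135a* (Mir135a-1, chr9:106154179-106154200, plus strand): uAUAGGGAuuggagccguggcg
miR-20a* (Mir20a, chr14:115044219-115044240, plus strand): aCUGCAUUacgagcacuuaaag
miR-24-1* (Mir24-1, chr13:63301213-63301235, plus strand): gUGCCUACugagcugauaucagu
miR-28* (Mir28a, chr16:24827908-24827929, plus strand): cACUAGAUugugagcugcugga

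The last set holds 4 further mouse sequences of miRNAs that only the rat-named assay measured on Array B, with miR-463 and miR-743a from the same X-linked cluster, and 1 (miR-382*) that only the microarray read. Those of miR-20b-5p and miR-148b-5p were found by their RefSeq names.
miR-20b-5p (Mir20b, chrX:52742159-52742181, minus strand): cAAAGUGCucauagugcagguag
miR-463 (Mir463, chrX:66799236-66799257, minus strand): uGAUAGACaccauauaagguag
miR-743a (Mir743, chrX:66776760-66776781, minus strand): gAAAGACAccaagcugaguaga
miR-148b-5p (Mir148b, chr15:103285148-103285171, plus strand): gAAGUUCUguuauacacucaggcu
miR-382* (Mir382, chr12:109733819-109733840, plus strand): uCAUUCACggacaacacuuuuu

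Of the 33 located mouse targets, 10 lay on chromosome X and 9 on chromosome 12, with no such count made over all mouse probes. The 12 mouse sequences matched to rat-named assays detectable in any condition had a GC content between 27.3% and 73.9% with a median of 48.9%. The 25 mouse sequences matched to the other rat-named assays lay between 28.6% and 65.2% with a median of 47.4%. Both ranges overlapped widely, and the GC content of the rat targets themselves was not measured.

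Within each condition the cards were alike in their controls. MammU6, a small nuclear RNA used as the endogenous control, had a Ct between 19.573 and 19.77 on Array A, at 21.714 and 21.673 on Array B without and at 13.803 and 14.012 with pre-amplification, and the plant miRNA ath-miR159a stayed undetermined on all cards. Among the mouse assays for muscle miRNAs 4 of 6 were detectable, miR-206 at 25.9 (Array B), miR-133b at 28.8, miR-486 at 29.0 and miR-133a at 30.6, while miR-1 and miR-499 had mean Ct values of 35.4 and 35.4. Of 20 markers of embryonic stem cells none was detectable, and of 8 markers of other tissues 4 were (miR-142-3p of blood cells, miR-126-3p of endothelium, miR-223 and miR-375). The part of other cell types in the rat-named readings was not tested. An undetermined well is deposited as a Ct of 40, and an assay is called detectable where its Ct averaged over the cards of a condition did not exceed 35.

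A smaller share of the rat-named than of the mouse assays was detectable in each condition. On Array A 8 of 40 rat-named assays (20%) were detectable, against 174 of 335 mouse assays (51.9%) and 48.5% of all assays. On Array B without pre-amplification 5 of 27 (18.5%) were detectable, against 55 of 182 mouse assays (30.2%) and 28.7% of all assays. With pre-amplification the count was 12 of 27 (44.4%), against 97 of 182 (53.3%) and 52.2% of all. Undetermined on every card were 20 of the 40 rat-named assays of Array A (50%) and 92 of the 335 mouse assays (27.5%). On Array B without pre-amplification these were 16 of 27 (59.3%) and 93 of 182 (51.1%). With pre-amplification the order turned, with 9 of 27 rat-named (33.3%) and 68 of 182 mouse assays (37.4%) undetermined on both cards. These shares describe the miRNAs chosen for the cards as well as the readings, and no test was made of them. Single cards of Array A held 9 to 11 rat-named assays at a Ct of 35 or less, those of Array B 5 and 7 without and 11 and 14 with pre-amplification.

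**Figure D1:**
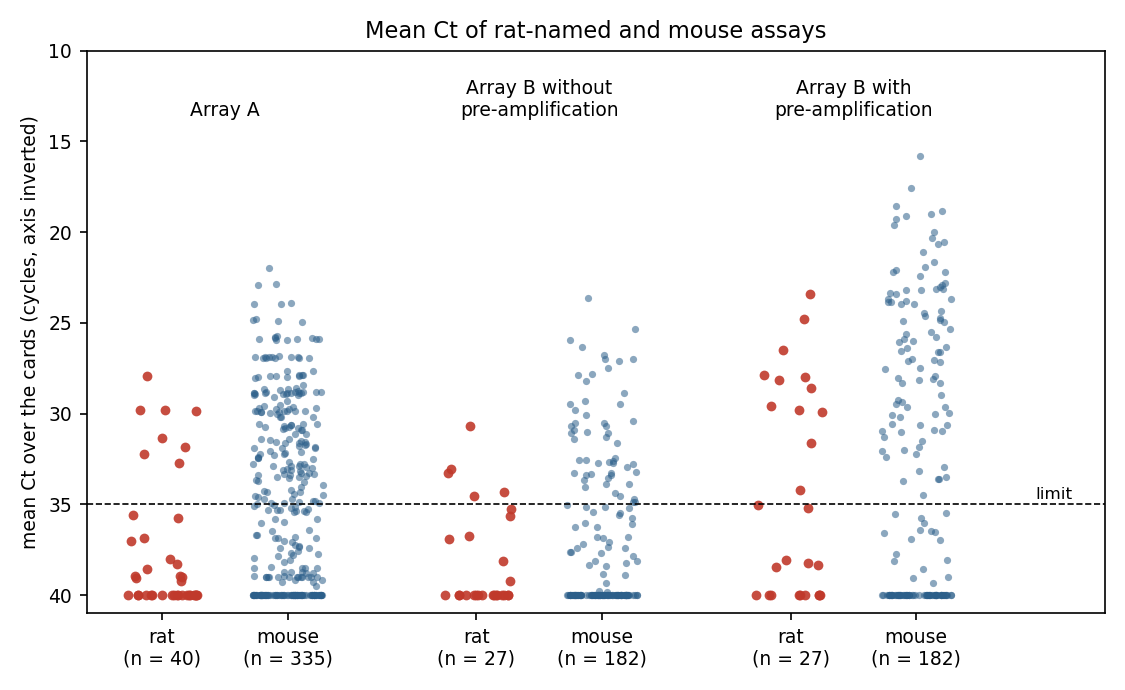
Each point is the mean Ct of 1 assay over the cards of its condition (axis in cycles and inverted, so that lower Ct values stand at the top), for rat-named assays (red) and mouse assays (blue). The dashed line is the limit of 35, and 8 of 40, 5 of 27 and 12 of 27 rat-named assays lie above it, with the lowest rat-named mean of Array A at 27.9 cycles.

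On Array A the lowest Ct values among rat-named assays belonged to those named for X-linked miRNAs and to that named for miR-196c. The rat-named assay for miR-532-5p, from a group of X-linked miRNAs, read 27.66 and 28.06 with RT1 (day 1, then day 2) and 28.07 and 28.02 with RT2 (mean 27.9 ± 0.197, SD, n = 4 cards), and all Array A values are given in that order. The assay for miR-224, an X-linked miRNA within the gene of a GABA receptor subunit, read 29.74, 30.003, 29.44 and 29.97 (mean 29.8 ± 0.259). That for miR-351, which has the seed of the miR-125 family, read 29.83, 29.98, 29.71 and 29.82 (mean 29.8 ± 0.110). RT1 day 1 was the lowest card for miR-532-5p, and RT2 day 1 for miR-224 and miR-351.

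The assay for miR-196c belongs to a family whose genes lie in the Hox clusters and which represses Hox mRNAs. It had no mouse partner by name and read 29.46, 29.97, 29.78 and 29.97 (mean 29.8 ± 0.240). Which mouse miRNA this assay read was not tested. The means for miR-224, miR-351 and miR-196c differed by less than their spread over cards, and none of them ranks as a level because the efficiency of each assay is its own.

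Later values belonged to miR-1, miR-207, miR-339-3p and miR-345-3p. The assay for miR-1, the muscle miRNA that promotes myoblast differentiation, read 30.20, 31.62, 31.58 and 31.97 (mean 31.3 ± 0.780), lowest on RT1 day 1. The assay for miR-207 read 31.95, 31.69, 31.65 and 32.01 (mean 31.8 ± 0.179), with no card apart. The assay for miR-345-3p read 32.14, 33.18, 32.95 and 32.54 (mean 32.7 ± 0.459).

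The assay for miR-339-3p was the least repeatable of the 8. It read 33.97 and 32.52 with RT1 and 31.25 and 31.06 with RT2 (mean 32.2 ± 1.35), so that the 2 reactions did not overlap. The median SD over cards was 0.250 cycles for the 8 detectable rat-named assays and 0.233 for the 174 mouse assays.

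Of the other 32 rat-named assays of Array A, 4 crossed a Ct of 35 on some cards but not in the mean. MiR-327 read 35.99, 34.03, 32.28 and 40 (mean 35.6), and miR-190b read 32.50, 33.39, 37.18 and 40 (mean 35.8). MiR-450a, of the X-linked cluster of miR-322 and miR-503, read 35.96, 40, 38.56 and 33.57 (mean 37.02). MiR-336 was read on RT1 day 2 alone, at 34.24. Each of the 4 was undetermined on at least 1 card of the same RNA. A further 8 gave a Ct on some card but never of 35 or less (miR-333, miR-343, miR-344-3p, miR-349, miR-466b, miR-742, miR-743b and miR-878), with means between 36.8 and 39.2. The 20 undetermined on every card were miR-17-3p, miR-20b-3p, miR-219-1-3p, miR-219-2-3p, miR-344-5p, miR-346, miR-347, miR-377, miR-381, miR-409-5p, miR-421, miR-466c, miR-505, miR-543, miR-598-5p, miR-673, miR-758, miR-760-5p, miR-871 and miR-881.

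**Figure D2:**
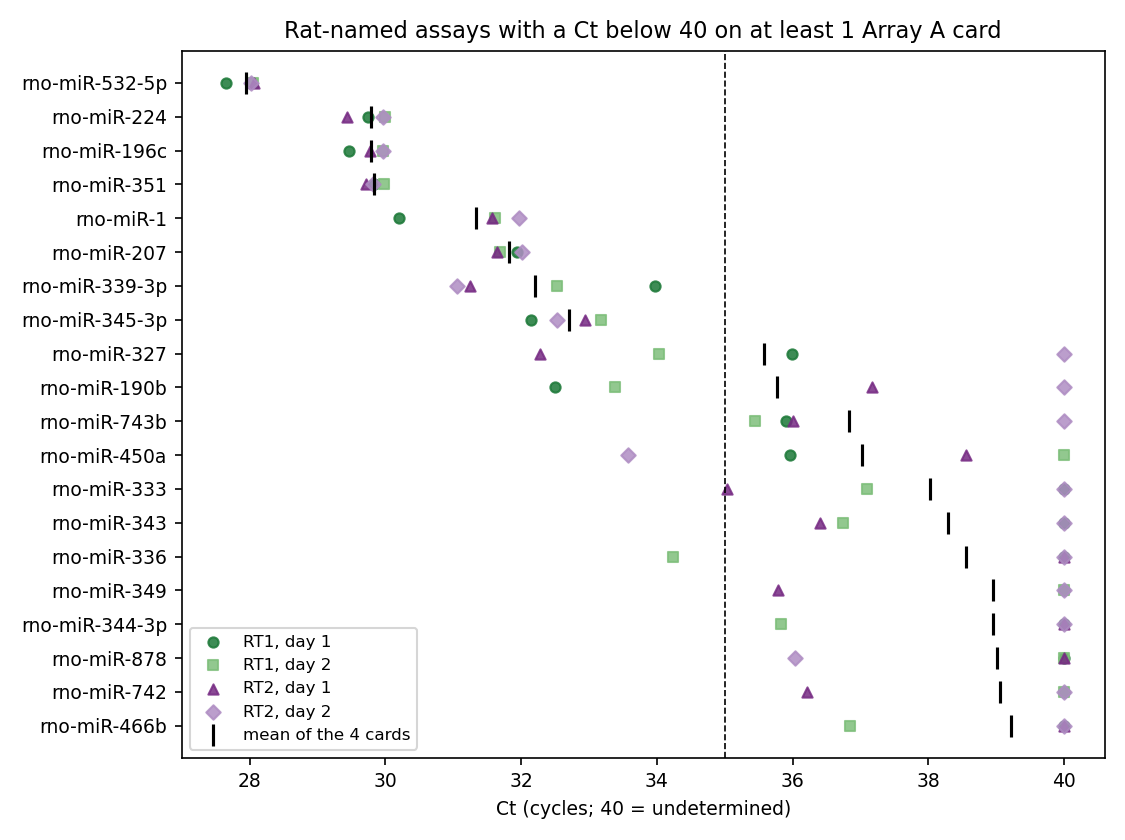
Ct (cycles, 40 for undetermined) of the 20 rat-named assays read on at least 1 Array A card, 1 symbol per card and a bar at the mean. The 8 assays from miR-532-5p to miR-345-3p lie left of the limit of 35 (dashed) on all 4 cards, and each assay below them has at least 1 card at 40.

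No rat-named assay differed between reactions or between days after adjustment. ΔCt is the Ct minus that of MammU6 on the same card, and limma was fitted over the 182 detectable assays with Benjamini-Hochberg adjustment. Between RT2 and RT1, with limma, 0 of 8 rat-named assays passed an adjusted p of 0.05, against 4 of 182 (2.20%) in all. At an unadjusted p under 0.05 the counts were 1 of 8 and 8 of 182. The 1 was miR-339-3p, whose ΔCt was lower by 2.01 ± 0.645 (SE) cycles with RT2 (limma, 95% interval -3.93 to -0.0971, adjusted p = 0.718). In the other 7 the difference lay between -0.088 and 0.943 cycles, the latter for miR-1 with an interval of -0.573 to 2.46. The median difference over all 182 assays was 0.119.

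Between day 2 and day 1, 0 of 8 rat-named and 0 of 182 assays passed in limma (0%). At an unadjusted p under 0.05 the counts were 0 of 8 and 8 of 182. The methods' t-test at its threshold called 1 of the 182 and no rat-named assay. Differences of the 8 ran from -0.901 for miR-339-3p (interval -4.21 to 2.41) to 0.820 for miR-1 (-0.818 to 2.46). The narrowest interval was that of miR-351, -0.476 to 0.557. Shifts of several cycles could thus not be seen for miR-339-3p at this number of cards.

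For 31 of the 67 rat-named assays a mouse assay of the same name was present, 16 with both on Array A, 8 with both on Array B and 7 on different arrays. A Ct difference between such assays is a difference in reading, since each primer set amplifies at its own efficiency. Over the cards of 1 RNA sample an exact sign permutation test cannot give a two-sided p below 0.13 with 4 cards or 0.5 with 2 cards, and it was run for the 7 pairs and conditions in which both were read on every card. On Array A both were detectable in 4 of 16 pairs, the rat-named assay alone in 3, the mouse assay alone in 1 and neither in 8.

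The miR-351 assays read alike. The mouse assay gave 29.89, 29.96, 29.89 and 29.97, and the rat-named assay stood -0.0943 ± 0.0927 cycles from it (SD, n = 4 cards, lower on 3 of 4, exact two-sided p = 0.25). No card put them more than 0.179 cycles apart.

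The miR-224 and miR-532-5p assays differed in the same direction on every card, in opposite ways. For miR-224 the mouse assay gave 30.008, 30.19, 29.96 and 30.68, and the rat-named assay was lower on 4 of 4 cards, by 0.421 ± 0.240 cycles (exact two-sided p = 0.13, n = 4). For miR-532-5p the mouse assay gave 26.71, 26.99, 26.79 and 26.98, and the rat-named assay was higher on 4 of 4 cards, by 1.08 ± 0.139 cycles (exact two-sided p = 0.13, n = 4). Both p-values are the smallest that 4 cards allow, and the cards share reactions and days.

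The miR-339-3p pair changed order between reactions. The mouse assay read 30.68 and 31.23 with RT1 and 31.64 and 32 with RT2. The rat-named minus mouse difference was 3.29 and 1.29 cycles with RT1 and -0.396 and -0.936 with RT2. The mean difference of 0.813 ± 1.91 cycles was smaller than its spread (exact p = 0.625, n = 4), and without RT1 on day 1 it was -0.0137. In limma the mouse assay moved by 0.946 ± 0.241 (SE) in ΔCt between RT2 and RT1 (adjusted p = 0.599), against the fall of 2.01 in the rat-named assay.

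In 3 pairs the rat-named assay was read on every card at 35 or less where the mouse assay was not. For miR-207 the mouse assay was undetermined on 3 cards and read 36.02 on RT1 day 2, the only card where both were read (difference -4.33 cycles). For miR-345-3p the mouse assay read 40, 33.26, 35.98 and 40, and on RT1 day 2 the difference was -0.077 cycles. For miR-1 the mouse assay read 31.81, 34.76, 34.97 and 40, and the rat-named minus mouse difference was -1.61, -3.14 and -3.39 cycles on the cards where both were read and -8.03 or further from 0 on the card with the mouse assay undetermined. The other arm of 1 of these hairpins was read steadily too, with the mouse assay for miR-345-5p at 33.0 ± 0.221.

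The only Array A pair with the mouse assay alone detectable was that for miR-881, whose gene belongs to an X-linked testis cluster. The mouse assay read 34.24, 37.03, 35.08 and 33.24 (mean 34.90 ± 1.61), and the rat-named assay was undetermined on all 4 cards. Of the 8 pairs with neither assay detectable, 5 were undetermined on every card in both (miR-377, miR-381, miR-409-5p, miR-505 and miR-871). The mouse assay gave a Ct on 1 card for miR-346 (33.96) and miR-543 (35.99), and the rat-named assay on 1 card for miR-742 (36.21). Detectable on Array A were 7 of the 20 rat-named assays with a mouse assay of the same name on either array, and 1 of the 20 without.

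**Figure D3:**
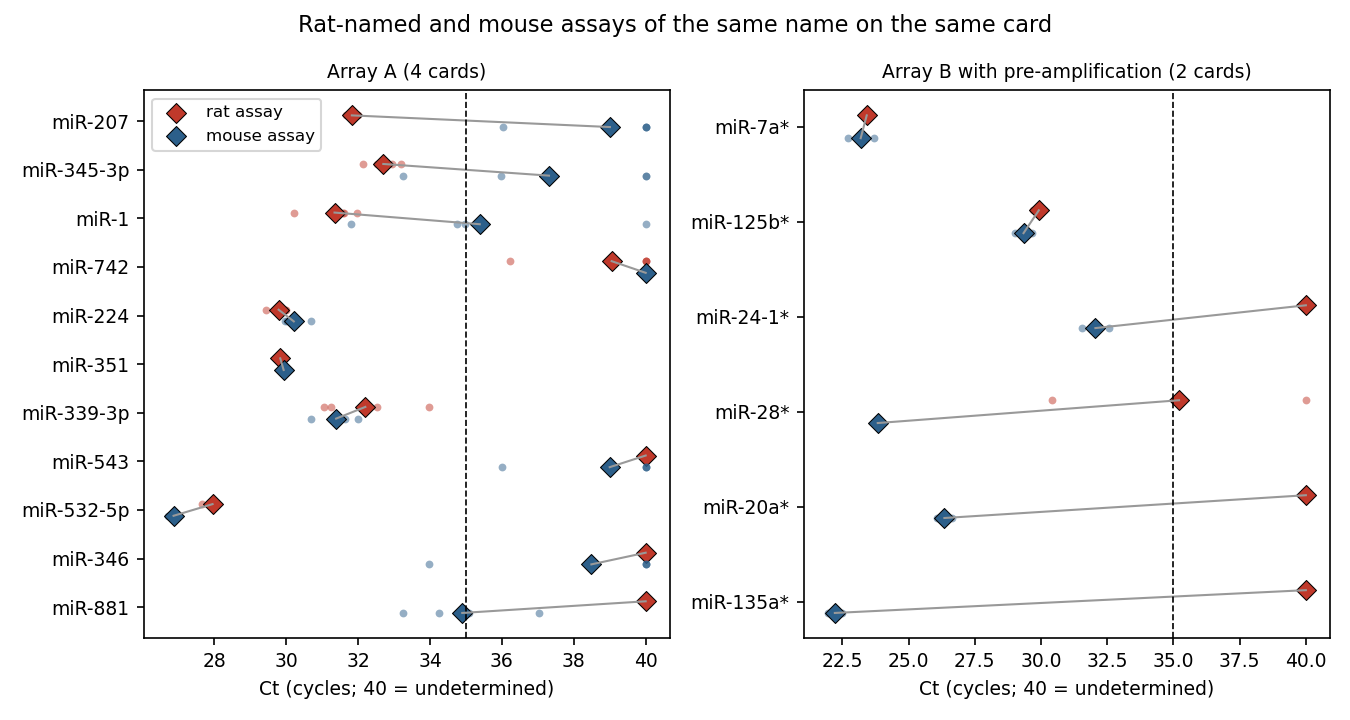
Ct (cycles, 40 for undetermined) of rat-named (red) and mouse (blue) assays of the same name on the same cards, small points for cards and diamonds for means, with pairs undetermined in both left out. On Array A (left) the red diamond lies at the lower Ct in 6 of 11 pairs, and on Array B with pre-amplification (right) at the higher Ct in 6 of 6.

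On Array B without pre-amplification 5 rat-named assays were detectable. The assay for miR-7a*, the passenger strand of a miRNA that is abundant in neurons and endocrine cells, read 30.67 and 30.70. That for miR-664 read 33.04 and 33.06. The assay for miR-20b-5p, of the X-linked paralog of the miR-17-92 cluster, read 33.63 and 32.97. MiR-99a*, from the hairpin that lies beside let-7c, read 34.15 and 34.53. MiR-463, of the X-linked testis cluster, read 35.21 and 33.85, so that its place among the 5 rests on card 2. A Ct of 35 or less on 1 card with a mean above it was seen for miR-148b-5p (34.52 and 36.04), miR-352 (36.85 and 34.48) and miR-30d* (39.31 and 34.14). Without card 1 of this condition 7 rat-named assays were detectable in place of 5.

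With pre-amplification all 5 were read again, and 7 were added. MiR-352 read 26.30 and 26.71, miR-30d* 27.31 and 28.49, and miR-148b-5p 27.75 and 28.27, and these are the 3 that had crossed 35 on 1 card before. MiR-23a*, from the hairpin that also neighbours miR-27a and miR-24-2, read 29.16 and 29.997 where it had read 38.48 and 40. Let-7e* read 29.42 and 30.21, from 37.19 and 36.59. MiR-125b*, the passenger strand of the lin-4 homolog miR-125b, read 29.70 and 30.13 and had been undetermined on both cards. MiR-743a, of the testis cluster, read 35.17 and 33.25, also from undetermined on both.

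The rest stayed above the limit. MiR-28* read 40 and 30.43 on the 2 pre-amplified cards, and miR-29b-2* read 36.05 and 34.01 (mean 35.03). MiR-204*, miR-29b-1*, miR-489 and miR-493 had means between 38.1 and 38.5, and 9 assays were undetermined on both pre-amplified cards (miR-1*, miR-135a*, miR-136*, miR-20a*, miR-24-1*, miR-25*, miR-363*, miR-379* and miR-382*). Among star strands the detectable count went from 2 to 6 of 19 rat-named assays, and from 35 to 62 of 110 mouse assays.

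**Figure D4:**
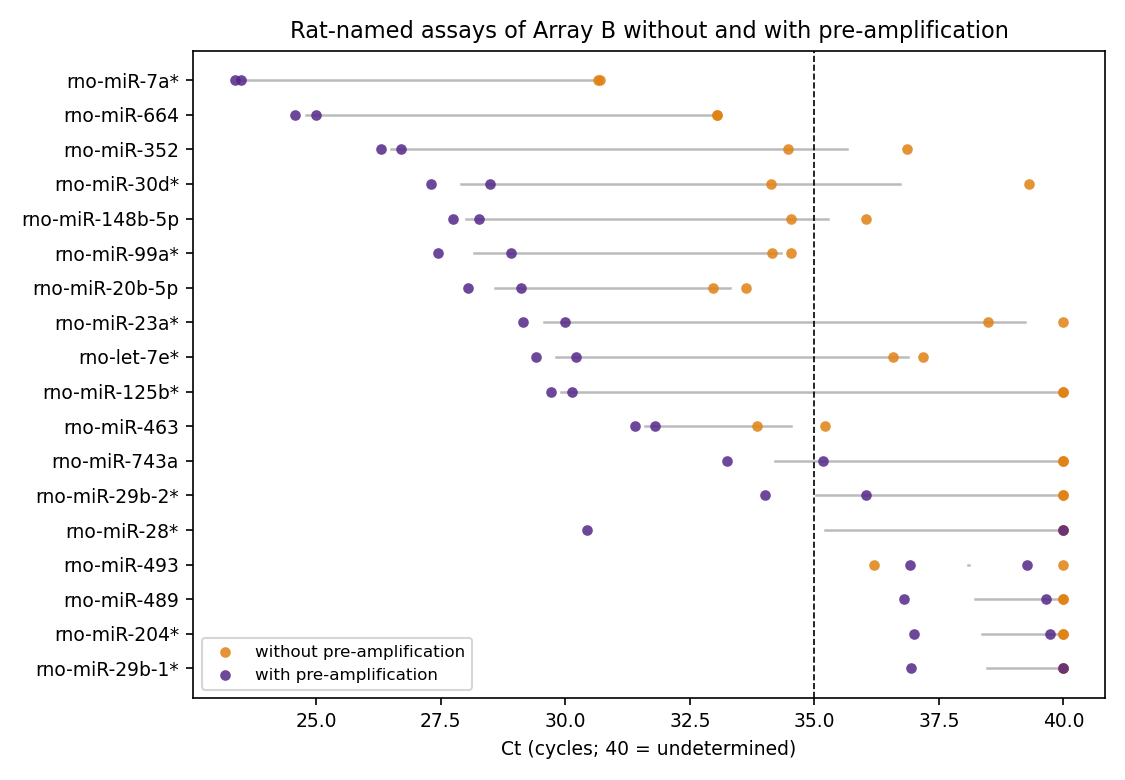
Ct (cycles, 40 for undetermined) of the 18 rat-named assays read on at least 1 Array B card, without (orange) and with (purple) pre-amplification, 1 point per card and a line between the means. The dashed line is the limit of 35, with 5 assays left of it in the mean without and 12 with pre-amplification.

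Pre-amplification lowered the Ct of the rat-named assays by unequal amounts. The Ct of MammU6 fell by 7.79 cycles and that of the 55 mouse assays detectable without pre-amplification by a median of 7.81 (4.75 to 10.0). Among the 5 rat-named assays detectable without it the median fall was 6.17. Both sets were kept for their Ct without pre-amplification, where the median was 33.3 for the rat-named and 31.3 for the mouse assays. The fall was 8.26 for miR-664, 7.26 for miR-7a*, 6.17 for miR-99a*, 4.71 for miR-20b-5p and 2.93 for miR-463. The last 2 lay below the range of the mouse assays, miR-20b-5p by a small margin. Of assays added with pre-amplification, miR-352 fell by 9.16, miR-30d* by 8.83, miR-148b-5p by 7.27 and let-7e* by 7.07 cycles. Wells undetermined before give bounds, of at least 10.1 cycles for miR-125b* (both cards) and at least 9.66 for miR-23a* (card 2).

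On the ΔCt scale 2 of the 5 rat-named assays rose with pre-amplification (limma over 60 assays, adjusted p under 0.05), against 15 of 60 (25%) in all and 9 of 60 (15%) that rose. The ΔCt of miR-463 went from a mean of 12.8 to 17.7, a rise of 4.86 ± 0.468 (SE) cycles (95% interval 3.63 to 6.08, adjusted p = 0.00265, n = 2 cards a group), the largest of the 60 differences. That of miR-20b-5p went from 11.6 to 14.7, a rise of 3.07 ± 0.388 cycles (2.05 to 4.09, adjusted p = 0.00527), the second largest. A higher ΔCt stands for relatively less product. Of the 15 assays called, 9 were higher and 6 lower, with other endogenous controls 23 and 3, with the card mean 9 and 11, and raw Ct, which keeps the pre-amplification in the difference, was lower for all 60.

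The other 3 did not pass. MiR-99a* differed by 1.62 ± 0.468 cycles (adjusted p = 0.0675), miR-7a* by 0.527 ± 0.206 (adjusted p = 0.147) and miR-664 by -0.472 ± 0.189 (adjusted p = 0.153, limma). The median difference was 1.62 over the 5 rat-named and 0.0208 over all 60 assays. With the card number as a block in limma, since the study's drawn scheme lets cards of the same number share a reverse transcription, neither rise passed (adjusted p = 0.0669 for miR-463 and 0.0920 for miR-20b-5p), and 4 of 60 assays did. The methods' t-test on the same values passed neither after Benjamini-Hochberg adjustment (adjusted p = 0.298 for miR-463 and 0.196 for miR-20b-5p). With the limit set on the mean of all 4 cards, or with none, miR-463 and miR-20b-5p passed and so did miR-125b* with a lower ΔCt, which rests on wells at 40 without pre-amplification. Leaving out 1 card leaves a lone card that is assumed to vary like those of the other condition. For cards without pre-amplification this changed the calls, to miR-20b-5p, miR-463, miR-99a* and miR-30d* without card 1, and to miR-20b-5p, miR-99a* and miR-148b-5p without card 2, where the mean Ct of miR-463 was above 35. Without pre-amplified card 1 miR-99a* passed too (2.25 cycles, adjusted p = 0.0200).

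**Figure D5:**
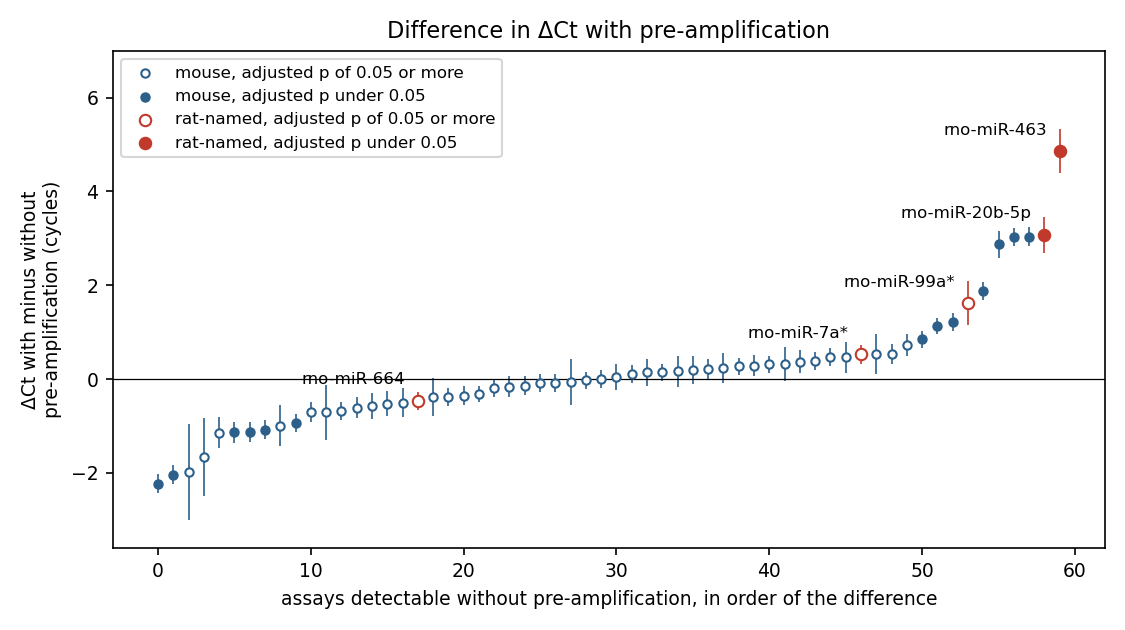
Difference in ΔCt (cycles, with minus without pre-amplification, error bars SE from limma) of the 60 assays detectable without pre-amplification, in rising order. Rat-named assays (red) are labelled, filled points passed an adjusted p of 0.05, and miR-463 (4.86) and miR-20b-5p (3.07) stand at the upper end.

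On Array B the mouse assay had the lower Ct in most same-name pairs. The pair closest to each other was that of miR-7a*, for which the mouse assay read 31.43 and 30.66 without and 23.69 and 22.70 with pre-amplification, and the rat-named assay stood at -0.364 ± 0.573 and 0.228 ± 0.617 cycles from it (SD, n = 2 cards, exact p = 1.0 in both). The sign differed between cards in both conditions. For miR-125b* with pre-amplification the mouse assay read 29.02 and 29.66, and the rat-named assay was 0.577 ± 0.152 cycles higher (higher on 2 of 2 cards, exact p = 0.5, n = 2). Without pre-amplification the mouse assay read 37.40 and 36.93 and the rat-named assay was undetermined.

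In 4 pairs only the mouse assay was detectable with pre-amplification. For miR-135a* the mouse assay read 29.50 and 29.06 without and 21.96 and 22.48 with pre-amplification, while the rat-named assay was undetermined on all 4 cards, at least 10.7 cycles above in the mean without and at least 17.8 with pre-amplification. For miR-20a*, the passenger strand of a member of the miR-17-92 cluster, it read 35.70 and 33.995, then 26.06 and 26.65, again with the rat-named assay undetermined on all 4 cards. For miR-28*, from an intron of the Lpp gene, it read 32.59 and 32.94, then 23.71 and 23.97, and the rat-named assay read once, 6.46 cycles later on pre-amplified card 2. For miR-24-1* it read 32.57 and 31.54 with pre-amplification only. MiR-136* and miR-382* were undetermined in both assays on all cards. With pre-amplification the mean Ct was higher for the rat-named assay in 6 of the 6 pairs read by either, and without it in 4 of 5.

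On Array B rat-named assays without a mouse assay of that name were read as well. With pre-amplification 9 of these 16 were detectable, and 3 of the 11 with one. They include miR-664, miR-352, miR-30d*, let-7e*, miR-23a* and miR-99a*, which no mouse assay of the same name measured on either array.

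For 7 names the rat-named and the mouse assay were on different arrays. Cards, RNA input and, on Array B, conditions differed, so the values stand side by side without a test. For miR-743a the mouse assay read 30.48, 30.33, 30.52 and 30.92 on Array A (mean 30.6 ± 0.254), and the rat-named assay on Array B was undetermined without and read a mean of 34.2 ± 1.36 with pre-amplification. For miR-190b it read 37.31 and 37.51 without and 27.59 and 28.29 with pre-amplification, beside the mean of 35.8 ± 3.48 for the rat-named assay on Array A. For miR-327, miR-343, miR-489, miR-493 and miR-758 all means were above 35 in both. On Array A the mouse assays for miR-489 and miR-493 were read on 1 card each, at 36.02 and 33.96.

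Of the 34 rat-named assays with no mouse assay or probe of that name, 4 matched a mouse assay through the RefSeq sequence of the same arm, a match chosen after the data were seen. The rat-named miR-20b-5p assay (33.3 ± 0.472 on Array B without pre-amplification, n = 2) corresponded to the mouse miR-20b assay of Array A, at 31.30, 32.03, 31.75 and 31.96 (mean 31.8 ± 0.330). Relative to MammU6 these were ΔCt means of 11.6 and 12.1, and relative to the mean of the other endogenous controls 5.65 and 5.19, so that the order of the pair depended on the control. The miR-17-3p assay was undetermined on Array A, and the mouse miR-17* assay read 36.66 and 35.87 without and 28.23 and 28.35 with pre-amplification. The miR-20b-3p assay and the mouse miR-20b* assay were undetermined throughout. The mouse miR-344 assay read 33.89, 33.43, 32.93 and 40, and the rat-named miR-344-3p assay read on RT1 day 2 alone, at 35.84.

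Some names that differ only in the arm suffix show how the opposite strand of a hairpin was read. The mouse assay for miR-17, the first member of its cluster, read 23.9 ± 0.0362 on Array A, where the rat-named assay for the other arm, miR-17-3p, was undetermined. The mouse miR-532-3p assay read 28.8 ± 0.120, beside 27.9 ± 0.197 for the rat-named miR-532-5p. The mouse miR-339-5p assay read 32.1 ± 0.560, and that for miR-409-3p 34.7 ± 0.976 where rat-named miR-409-5p was undetermined. The rat names of miR-450a, miR-743b and miR-878 give no arm. For the first of these the mouse miR-450a-5p assay averaged 35.8 ± 3.04 on Array A, beside 37.02 for the rat-named assay.

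The microarray carried a mouse probe for 33 of the rat-named assays, each spotted 5 times, and 5 of these (15.2%) reached a background-subtracted signal of 32 on both chips, against 142 of 622 mouse probes (22.8%). Signals of different probes are not compared. The probe for miR-351 gave 916 and 672 on the 2 chips, that for miR-532-5p 312 and 211.4 and that for miR-224 100.4 and 110.6, and for these 3 miRNAs the rat-named and the mouse assay were detectable as well. The probe for miR-421 gave 88.7 and 125, and the rat-named assay, the only assay of that name, was undetermined on all 4 cards. The probe for miR-382* gave 38.2 and 66.6, and both assays were undetermined on all cards.

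The other detectable rat-named assays with a probe stayed below that signal. These were miR-1 (13.3 and 13.6), miR-207 (14.9 and 23.1), miR-339-3p (10.2 and 10.6), miR-345-3p (13.6 and 12.1), miR-7a* (4.64 and 9.99), miR-125b* (11.4 and 11.8), miR-463 (6.77 and 14.2) and miR-743a (18.96 and 17.8). The probe for miR-135a*, whose mouse assay had a mean Ct of 29.3 on Array B without pre-amplification, gave 18.4 and 19.99. Probes for miR-346 (24.3 and 32.4) and miR-28* (34.9 and 31.6) reached 32 on 1 chip. The count rests on the background step, since after normexp correction of the scanner values 26 of the 33 and 83.1% of all mouse probes were at 32 or more.

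The groups by family and locus were small and were not compared by a test. Over all rat-named assays 20% were detectable on Array A, and on Array B 18.5% without and 44.4% with pre-amplification. Of the imprinted Dlk1-Dio3 cluster, whose miRNAs lie on mouse chromosome 12, 0 of 6 rat-named assays on Array A and 0 of 4 on Array B were detectable in any condition, beside 5 of 43 and, with pre-amplification, 1 of 18 mouse assays. Of the X-linked testis group 0 of 5 on Array A and 1 of 2 on Array B were detectable, the latter 2 of 2 with pre-amplification, beside 6 of 18 mouse assays on Array A and, on Array B, 0 of 4 without and 2 of 4 with pre-amplification. Of the miR-17-92 family of clusters, known for driving cell growth, 0 of 2 on Array A and, in both conditions, 1 of 4 on Array B were detectable. The mouse counts were 11 of 13 on Array A and, on Array B, 4 of 8 without and 5 of 8 with pre-amplification. All 5 undetermined rat-named assays of that cluster were star strands or 3p arms. Among neuronal and retinal miRNAs both miR-219 3p arms were undetermined on Array A, beside 5 of 14 mouse assays detectable. On Array B miR-7a* was detectable in both conditions and miR-204* in neither. The mouse counts there were 2 of 6 without and 4 of 6 with pre-amplification. Of the muscle list miR-1 was detectable and its star strand undetermined on all Array B cards. Mouse assays of that list were detectable in 3 of 7 on Array A and 1 of 2 on Array B in both conditions.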

How the data were processed

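For each qPCR card the authors deposited the Ct values of the instrument software, at 1 threshold for all assays, and a ΔCt table relative to MammU6. The raw Ct values were used and the subtraction repeated. Of 2380 deposited ΔCt values 2 differed by over 0.002 cycles, neither of a rat-named assay. For the microarrays the authors deposited scanner densities and a background-subtracted intensity, which was averaged over the 5 spots of a probe. Assay names were compared after the species prefix and assay number had been removed. ΔCt differences were fitted in R 4.3.3 with limma 3.58.1 over all assays with a mean Ct of 35 or less (Array B, on the cards without pre-amplification), with Benjamini-Hochberg adjustment at 0.05. The step was tested on simulated data. Python 3.11.15, numpy 2.4.6, pandas 2.3.3 and matplotlib 3.10.9 were used. The number of cards and chips limits the precision.

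Named were all rat-named assays that were detectable, read at 35 or less on 1 card or more, called by limma, or that had a mouse assay of the same name or a mouse probe at 32 or more on both chips. The members, lists and tests were chosen with earlier results of these data known. Days and reactions in the labels pair the Array A cards, and per the study's drawn scheme a shared reverse transcription pairs those of Array B. The correlation between cards of 1 number, after the group means were taken off, was 0.0255 (reactions by day), 0.325 (days by reaction) and -0.0131 (Array B). Alternatives were other Ct and signal limits, raw Ct, other controls, the card mean, the methods' t-test (p under 0.01), the number as a block, normexp correction (offset 50), names without arm suffix and each card or chip left out.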

Additional observations from a re-analysis of the deposited data

Results flagged for a closer look

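On Array A 1 card stood apart for the rat-named assay of miR-532-5p. RT1 day 1 read 27.66 and the other 3 cards read 28.02 to 28.07, and the gap to the nearest card was 0.893 of the whole range of the 4 cards. The mouse assay of the same name showed no such gap (0.281), and about 1 in 20 groups passes this limit by chance, with 17 sets of 4 values examined.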

How the results depend on the processing

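Depth is limited by 1 RNA sample, 4 or 2 cards, and Ct values near 35. The detectable count of Array B without pre-amplification, 5, was 1 at a Ct limit of 32, 9 at 37 and 8 with 35 or less on at least 1 card. Left-out cards gave 8 to 10 on Array A, 5 to 7 and 11 to 14 on Array B without and with pre-amplification.

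For RT2 against RT1, 4 assays passed over all, 2 with raw Ct, 2 with the methods' t-test, 1 with the replicate block, 0 at a Ct limit of 32 and 0 to 1 with a card left out. For the days, 0 passed, 1 with the methods' t-test, 2 at a Ct limit of 32, and 0 to 1 with a card left out. No rat-named assay passed in either comparison under any of these settings.

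For pre-amplification, 15 assays passed, 9 higher and 6 lower. With raw Ct 60 passed (all lower), with other endogenous controls 26 (23 higher, 3 lower), with the card mean 20 (9 higher, 11 lower), with the methods' t-test 3, with the replicate block 4, and with a card left out 8 to 32. The median over all 60 was 0.0208 in ΔCt, -7.77 in raw Ct, 0.481 with the other controls and -0.124 with the card mean. Of rat-named assays 2 passed, 5 with raw Ct, 4 with other endogenous controls, 0 with the methods' t-test, 0 with the replicate block, 1 (miR-7a*) at a Ct limit of 32, 3 (with miR-125b* lower) with no limit or a limit on all 4 cards, and 2 to 4 with a card left out. Raw Ct leaves the pre-amplification itself in the difference, which turned the sign for miR-20b-5p (-4.71), miR-463 (-2.93), miR-7a* (-7.26) and miR-99a* (-6.17). MiR-664 passed with the card mean (-0.616). The replicate block changed no other call of a rat-named assay.

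Left-out cards kept the difference between rat-named and mouse assay at -0.499 to -0.324 for miR-224, -0.133 to -0.066 for miR-351, 1.02 to 1.13 for miR-532-5p and 0.469 to 0.684 for miR-125b*, and spread from -0.0137 to 1.40 for miR-339-3p and, for miR-7a*, from -0.769 to 0.042 without and -0.209 to 0.664 with pre-amplification. The ΔCt of rat-named miR-20b-5p minus that of mouse miR-20b was -0.522 against MammU6 and 0.456 against the other controls. Without arm suffix, same-card pairs on Array A rose from 16 to 29, with both detectable in 7 in place of 4 and the mouse assay alone in 4 in place of 1. The pairs added to the detectable counts set opposite arms of a hairpin side by side, which are different miRNAs. They were those of miR-339-3p, miR-345-3p and miR-532-5p (both detectable) and of miR-17-3p, miR-20b-3p and miR-409-5p (mouse alone). Not all other added pairs were opposite arms. Rat-named miR-344-3p and mouse miR-344 are the same arm by RefSeq, and the rat names of miR-450a, miR-743b and miR-878 give no arm. Of same-name probes 26 passed after normexp correction, 3 at a signal of 100 and 6 with either chip left out. The cause of these changes was not tested.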

Other observations

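Ct values of Array A often lay just below a whole cycle, in rat-named and in mouse assays. Of the 32 wells of the 8 detectable rat-named assays 8 (25%) had a Ct whose fraction was 0.9 or above, beside 242 of 696 mouse wells (34.77%). On Array B without pre-amplification the counts were 1 of 10 and 12 of 110 wells (10.9%). The rat-named values of miR-224 and miR-196c on RT2 day 2, both at 29.97, are 2 such wells. The cause was not tested.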
